A study of Homo sapiens with 10 samples.

Results

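The BCL2 family genes described here are 10 genes whose products set how readily a cell enters the mitochondrial route of apoptosis. They were chosen by gene symbol from the probe table of a human array, and each was read from the transcript cluster, a group of probes standing for 1 gene or RNA, that names that symbol alone. Each of the 10 had 1 such cluster, and 22392 genes in all had a cluster of their own. The survival members were BCL2, BCL2L1 and MCL1, and the 7 killer members were BCL2L11, BBC3, PMAIP1, BMF, BIK and BID, which carry only the BH3 domain of the family, and the pore-forming BAX.

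RNA was measured on 10 Affymetrix HuGene 2.1 ST arrays. The groups were shRb cells given 10 μM sorafenib for 9 h (replicates 10, 11 and 12), shRb controls (replicates 7, 8 and 9), Huh7 cells exposed to the same dose for the same time (replicates 5 and 6) and Huh7 controls (replicates 1 and 3). The labels give the treatment of both control groups as none, so a vehicle is not stated. Huh7 cells derive from a human liver carcinoma, and sorafenib inhibits RAF kinases and several receptor tyrosine kinases. The name shRb is not spelled out in the labels, and whether it is 1 clone or a pool is not given in the sources used here. The cluster of RB1, the retinoblastoma gene, read 6.12, 5.56 and 5.35 (log2 scale) in shRb cells with sorafenib, 5.56, 5.94 and 5.92 in shRb controls, 7.94 and 8.07 in Huh7 cells with sorafenib, and 8.18 and 7.99 in Huh7 controls. It was lower in shRb without overlap, by -2.33 with sorafenib (adjusted p = 0.000667) and by -2.28 without it (adjusted p = 0.00103, limma).

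In healthy cells the survival proteins hold the killers in check at the outer mitochondrial membrane. Stress raises or activates BH3-only proteins, which occupy the groove of the survival proteins or act directly on BAX and BAK1, and these then form pores that release cytochrome c and lead to caspase activation. In liver cancer cells MCL1 and BCL2L1 (BCL-XL) are well known survival members, and MCL1 is a short-lived protein, so its mRNA and its protein need not move together. Protein, cleavage and cell death are not measured by these arrays, and the transcript clusters do not separate splice forms such as the long and short forms of BCL2L1 and MCL1.

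All 11 measured hepatocyte markers (ALB, TTR, AFP and others) lay above the upper quartile of every array. None of 6 fibroblast or 5 endothelial markers did so on all arrays, and of 6 leukocyte markers LYZ (10.61 to 11.22) and CD68 (7.56 to 8.84) did. PTPRC (1.49 to 2.04) and CD3E (2.31 to 2.95) were below the median of every array. CD14 (2.78 to 3.66) was above it on 1 array and ITGAM (3.63 to 5.0) on all 10. Above the median on all 10 arrays were 4 of 6 fibroblast, 3 of 6 leukocyte and 1 of 5 endothelial markers. The mean of the leukocyte list ran from 4.93 to 5.07 in shRb cells with sorafenib and from 4.92 to 4.98 in shRb controls, and from 5.18 to 5.41 in Huh7 cells with sorafenib and from 5.15 to 5.23 in Huh7 controls. Arrays of the same group correlated at r = 0.984 to 0.99 over all clusters (8 pairs) and arrays of different groups at 0.975 to 0.987 (37 pairs). Array medians lay between 3.39 and 3.42. BCL2 lay below the median of all 10 arrays, and below the lower quartile on 2, and BIK was above the median on 2 of 10, so for these the fold changes are those of dim probes. The other 8 members were above the median on every array.

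The first question was what sorafenib did to the members in each line. In shRb cells 2 of the 10 rose at an adjusted p under 0.05 over all clusters, the killer PMAIP1 and the survival member MCL1, and none fell. Over all genes 2.96% were called higher and 3.74% lower in shRb. In Huh7 cells none of the 10 was called in either direction, beside 1.00% of all genes called higher and 0.893% called lower. PMAIP1, BMF and MCL1 had unadjusted p-values under 0.05 from limma in Huh7 (3 members), and the equal-variance test that the study's methods name (the methods' test) gave 2 members at that level and 0 after adjustment. In shRb limma gave 6 members at that level, and the methods' test gave 4, and 0 after adjustment. The share of all genes at that unadjusted level was not counted. The members' median log2 fold change was 0.10 in shRb, against 0.0034 over all genes, and 0.28 in Huh7, against 0.02 over all genes. In bulk RNA a higher level per cell and more cells at a high level cannot be told apart.

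**Figure D1:**
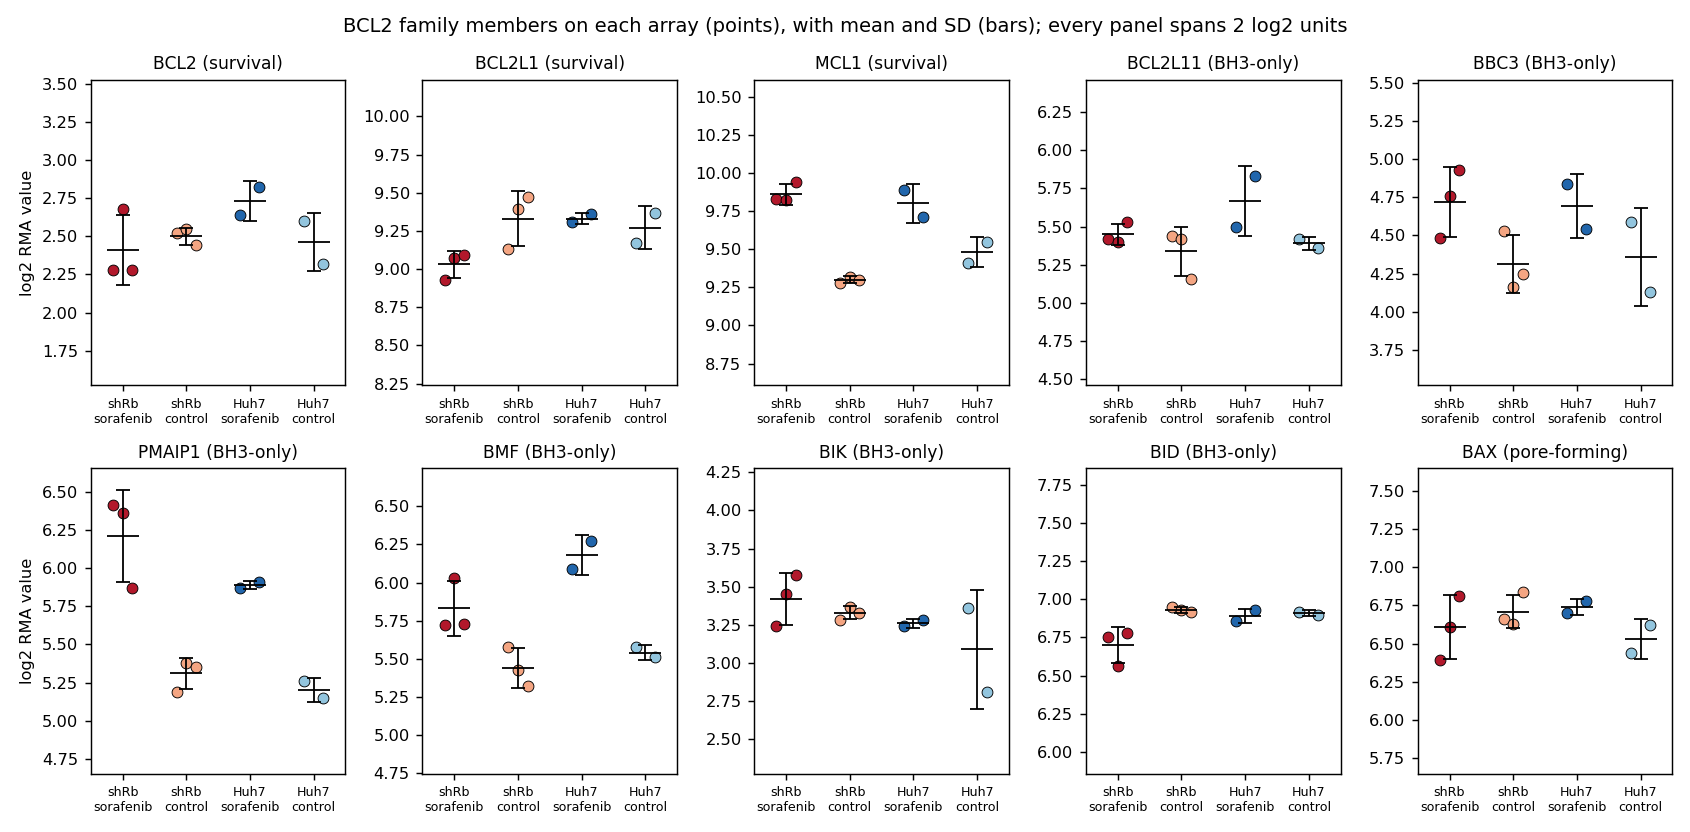
Log2 RMA value (vertical axis) of each BCL2 family member on each of the 10 arrays (points), in shRb with sorafenib, shRb control, Huh7 with sorafenib and Huh7 control (horizontal axis), with the group mean and SD as bars. In PMAIP1, MCL1 and BMF the 5 sorafenib arrays of both lines lie above the 5 control arrays, and in the other 7 panels they overlap.

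PMAIP1 encodes NOXA, a BH3-only protein that binds MCL1 in preference to other survival members and is a target of the integrated stress response. Its cluster read 6.41, 6.36 and 5.87 in shRb cells with sorafenib and 5.19, 5.38 and 5.35 in shRb controls. The lowest treated array, replicate 12, was still above the highest control. The rise was 1.87-fold (95% interval 1.5 to 2.34, log2 0.91 ± 0.14 SE, adjusted p = 0.0066, n = 3 and 3, limma). In Huh7 cells PMAIP1 read 5.87 and 5.91 with sorafenib and 5.26 and 5.15 in controls, again without overlap. That difference was 1.61-fold (log2 0.69 ± 0.18 SE) and did not pass (adjusted p = 0.0936, n = 2 and 2, limma). It passed when shRb sorafenib replicate 12 was omitted from the fit (adjusted p = 0.0254, limma), and in no other fit that left out 1 array. It passed under 0 of 7 other settings, among them the methods' test (adjusted p = 0.401).

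MCL1, the survival member that NOXA binds, moved in the same direction. It read 9.83, 9.82 and 9.94 in shRb cells with sorafenib and 9.28, 9.32 and 9.30 in shRb controls, so the groups were separated by far more than the spread within either. The rise was 1.48-fold (95% interval 1.28 to 1.71, log2 0.56 ± 0.095 SE, adjusted p = 0.00881, n = 3 and 3, limma). In Huh7 cells MCL1 read 9.89 and 9.71 with sorafenib and 9.41 and 9.55 in controls. These did not overlap either, but the difference of 0.32 (95% interval 0.063 to 0.58) did not pass (adjusted p = 0.256, limma). In shRb both MCL1 and PMAIP1 were called without any one of the 10 arrays (largest adjusted p 0.0402 and 0.0329) and under 6 of 8 other settings. The exceptions were the methods' test (adjusted p = 0.0533 for MCL1 and 0.167 for PMAIP1) and a replicate block (0.104 and 0.0731), which ties shRb sorafenib replicates 10, 11 and 12 to controls 7, 8 and 9 by the order their descriptions state.

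BMF, a BH3-only protein held on the cytoskeleton in unstressed cells, was the Huh7 member with the smallest p. It read 6.09 and 6.27 in Huh7 cells with sorafenib and 5.58 and 5.51 in Huh7 controls, and 5.72, 6.03 and 5.73 in shRb cells with sorafenib and 5.58, 5.43 and 5.32 in shRb controls. Neither line had an overlap, although in shRb the lowest treated and the highest control array were 5.72 and 5.58. The difference was 1.56-fold in Huh7 (log2 0.64 ± 0.15 SE, adjusted p = 0.0677) and 1.31-fold in shRb (log2 0.39 ± 0.12 SE, adjusted p = 0.113), and neither passed. In Huh7 it passed when only brighter clusters (0.0405) or clusters with 1 gene symbol (0.0382) were tested, or without shRb sorafenib replicate 11 (0.0481). It passed in no other fit that left out 1 array. Nor did it pass with only the arrays of the compared groups (adjusted p = 0.129, limma) or under the methods' test (adjusted p = 0.459).

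Because both lines got the same dose, the mean of the 2 effects was tested as 1 contrast, which was added after the values of each line had been seen. PMAIP1 rose 1.74-fold (log2 0.80 ± 0.11 SE, adjusted p = 0.00266), BMF 1.43-fold (log2 0.51 ± 0.096 SE, adjusted p = 0.0108) and MCL1 1.36-fold (log2 0.44 ± 0.075 SE, adjusted p = 0.00651), and the other 7 were not called. Over all genes 3.71% were called higher and 4.58% lower in this contrast. The methods' test and the replicate block were not run for it. BMF was not called without Huh7 control replicate 3 (adjusted p = 0.0515) or Huh7 sorafenib replicate 6 (0.0547), and PMAIP1 and MCL1 were called without any one array. Across both lines the 5 treated arrays lay above the 5 controls for these 3 members and below them for 0, beside 3.43% and 4.12% of all genes. For PMAIP1 the treated arrays ran from 5.87 to 6.41 and the controls from 5.15 to 5.38, for MCL1 from 9.71 to 9.94 and from 9.28 to 9.55, and for BMF from 5.72 to 6.27 and from 5.32 to 5.58.

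The 250 bases before the start of PMAIP1 and BMF, the BH3-only members that rose in that contrast, are shown with those of BAX, a killer that did not pass in any comparison. RefSeq promoters (GRCh38.p14) matched 8 members, and MCL1 and BIK were without an entry. PMAIP1 lies at chr18:59899746-59899995 (plus strand), BMF at chr15:40108880-40109129 (minus strand) and BAX at chr19:48954625-48954874 (plus strand). Each is written 5′ to 3′ in its gene's direction, and capitals mark motif matches on either strand.
PMAIP1: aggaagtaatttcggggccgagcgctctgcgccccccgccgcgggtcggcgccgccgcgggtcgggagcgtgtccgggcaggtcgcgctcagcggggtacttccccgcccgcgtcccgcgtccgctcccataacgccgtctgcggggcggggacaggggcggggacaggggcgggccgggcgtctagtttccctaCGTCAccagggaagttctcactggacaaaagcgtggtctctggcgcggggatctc
BMF: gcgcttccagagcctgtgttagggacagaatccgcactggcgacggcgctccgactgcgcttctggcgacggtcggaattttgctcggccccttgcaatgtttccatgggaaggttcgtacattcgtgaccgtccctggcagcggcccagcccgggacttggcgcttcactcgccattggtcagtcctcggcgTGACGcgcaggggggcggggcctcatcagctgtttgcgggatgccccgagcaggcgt
BAX: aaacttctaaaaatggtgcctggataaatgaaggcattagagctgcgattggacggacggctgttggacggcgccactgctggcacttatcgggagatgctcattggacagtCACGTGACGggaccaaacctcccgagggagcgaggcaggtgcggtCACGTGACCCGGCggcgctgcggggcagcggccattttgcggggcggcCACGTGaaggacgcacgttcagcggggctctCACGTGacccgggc

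The motifs searched were the ATF/CREB core TGACG, the full CRE TGACGTCA, the C/EBP-ATF composite TGATGNAA, the AP-1 site TGANTCA, the FOXO site TGTTTAC, the antioxidant response core TGACNNNGC, the E2F site TTNCGCGC and the E-box CACGTG. The core is contained in the full CRE and can overlap an E-box or an antioxidant response core. PMAIP1 held 1 ATF/CREB core, which began 55 bases before the start on the opposite strand, and BMF held 1 at 57 bases. In BAX the capitals are 4 E-boxes, an ATF/CREB core and an antioxidant response core. The ATF/CREB core was in 5 of the 8 members (BCL2, BCL2L1 and BAX also), beside 21.7% of 27305 promoters of this length. The E-box was in BBC3 and BAX (6.49% of all promoters), the AP-1 site in BBC3 only (6.60%), the FOXO site in BCL2L11 only (2.98%) and the antioxidant response core in BAX only (11.0%). The full CRE, the composite and the E2F site were in 0 of 8 (1.77%, 3.19% and 2.23% of all promoters). These are matches of letters, not sites shown to be bound.

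Among the remaining survival members, BCL2L1, which encodes BCL-XL, read 8.93, 9.07 and 9.09 in shRb cells with sorafenib and 9.13, 9.39 and 9.47 in shRb controls. Every treated array was below every control, and the difference of -0.29 (95% interval -0.55 to -0.035) did not pass (adjusted p = 0.218, limma). In Huh7 it read 9.31 and 9.36 with sorafenib and 9.17 and 9.37 in controls, which overlap (0.066, 95% interval -0.25 to 0.38). BCL2, the founding member, read 2.28, 2.68 and 2.28 in shRb cells with sorafenib and 2.52, 2.55 and 2.44 in shRb controls, with overlap. In Huh7 it read 2.64 and 2.82 with sorafenib and 2.60 and 2.32 in controls. The differences of -0.092 in shRb (adjusted p = 0.819) and 0.27 in Huh7 (adjusted p = 0.567) were both within intervals that include 0.

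BBC3 encodes PUMA, a BH3-only protein that binds all survival members. It read 4.48, 4.76 and 4.93 in shRb cells with sorafenib and 4.53, 4.16 and 4.25 in shRb controls, and 4.84 and 4.54 in Huh7 cells with sorafenib and 4.59 and 4.13 in Huh7 controls. In each line 1 control array lay above the lowest treated array. The differences of 0.41 in shRb (95% interval 0.026 to 0.79, adjusted p = 0.253) and 0.33 in Huh7 (-0.14 to 0.80, adjusted p = 0.595) did not pass. BCL2L11 encodes BIM, which ERK is known to mark for degradation. It read 5.42, 5.40 and 5.53 in shRb cells with sorafenib and 5.44, 5.42 and 5.16 in shRb controls, with overlap, and 5.50 and 5.83 in Huh7 cells with sorafenib and 5.42 and 5.36 in Huh7 controls, without. Its differences were 0.10 in shRb (95% interval -0.17 to 0.38) and 0.28 in Huh7 (-0.052 to 0.61).

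BID, which caspase-8 cleaves and which joins the death receptors to the mitochondrion, read 6.75, 6.56 and 6.78 in shRb cells with sorafenib and 6.95, 6.93 and 6.92 in shRb controls. The treated arrays were all below the controls, with a difference of -0.23 (95% interval -0.44 to -0.023) that did not pass (adjusted p = 0.232, limma). In Huh7 BID read 6.86 and 6.93 with sorafenib and 6.92 and 6.90 in controls, a difference of -0.016 (-0.27 to 0.24). BIK, a BH3-only protein of the endoplasmic reticulum, read 3.24, 3.45 and 3.58 in shRb cells with sorafenib and 3.28, 3.37 and 3.33 in shRb controls. In Huh7 it read 3.24 and 3.28 with sorafenib and 3.36 and 2.81 in controls, so it overlapped in both lines. BAX, which forms the pore together with BAK1, read 6.39, 6.61 and 6.81 in shRb cells with sorafenib and 6.66, 6.63 and 6.84 in shRb controls, and 6.70 and 6.78 in Huh7 cells with sorafenib and 6.44 and 6.62 in Huh7 controls. The differences of BAX were -0.11 in shRb (95% interval -0.39 to 0.18) and 0.21 in Huh7 (-0.14 to 0.55), neither past the threshold.

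Survival and killer members were then set side by side. In shRb, 1 of 3 survival members and 1 of 7 killers were called higher, and the median log2 fold changes were -0.092 and 0.10. In Huh7, 0 of 3 and 0 of 7 were called, with medians of 0.27 and 0.28. The 3 treated shRb arrays lay above the 3 controls for 3 of the 10 members (PMAIP1, MCL1 and BMF) and below them for 2 (BCL2L1 and BID), beside 12.0% and 13.5% of all genes. In Huh7, with 2 arrays a group, 6 of 10 members were higher without overlap and 0 lower, beside 26.0% and 21.8% of all genes. In shRb the log2 fold change was above 0 for 1 of 3 survival members and 5 of 7 killers, and in Huh7 for 3 of 3 and 6 of 7.

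**Figure D2:**
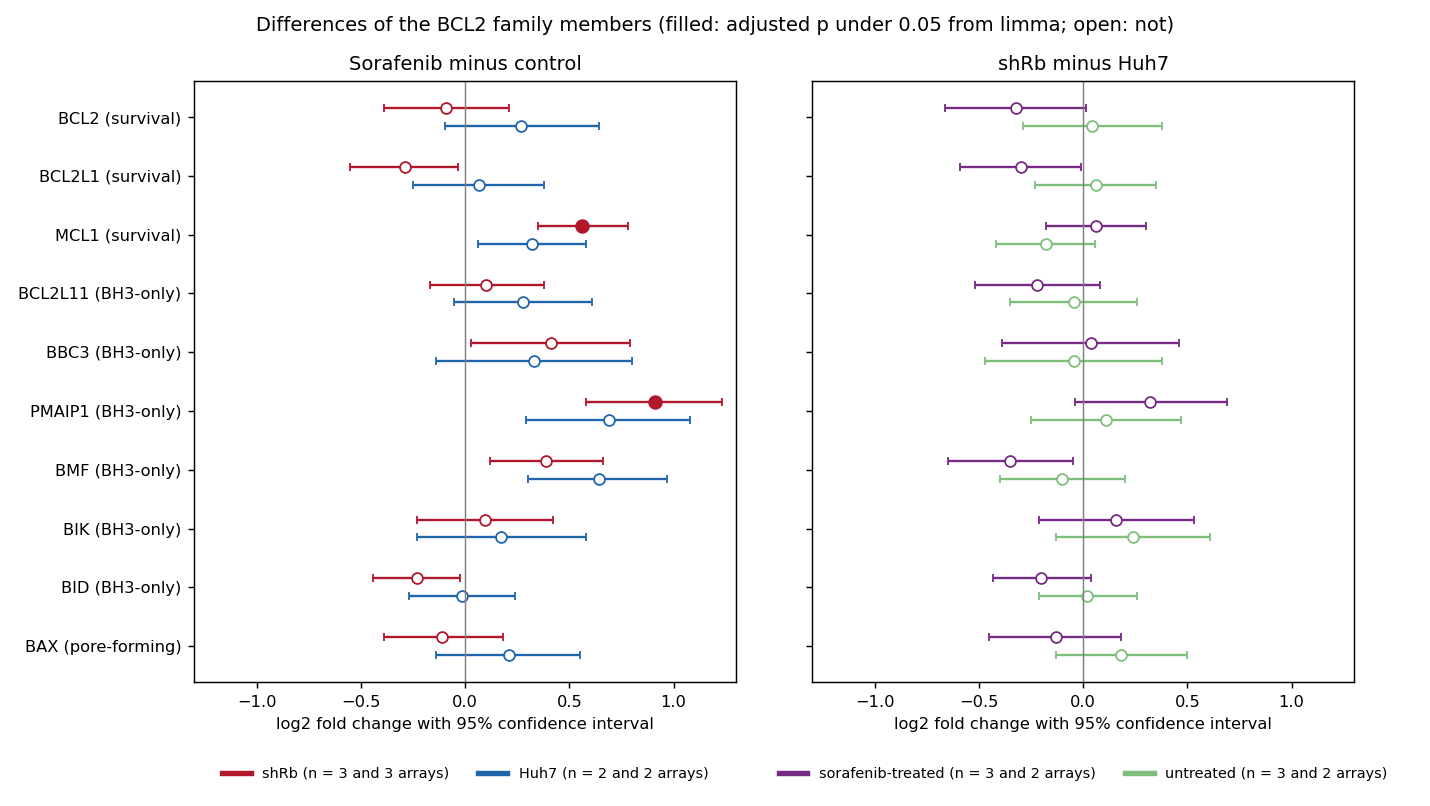
Log2 fold change with its 95% confidence interval (horizontal axis) for each BCL2 family member (vertical axis), as sorafenib minus control in shRb and Huh7 (left) and as shRb minus Huh7 in treated and untreated cells (right). PMAIP1 (0.91) and MCL1 (0.56) in shRb are the only filled points, those past an adjusted p of 0.05.

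The second question was whether the response differed between the lines. The difference between the effects (shRb minus Huh7) was called for 0 of 10 members by limma, with 0 at an unadjusted p under 0.05 and adjusted p-values from 0.719 to 0.974. Only 0.0134% of all genes were called higher and 0.0715% lower. It was 0.22 for PMAIP1 (95% interval -0.29 to 0.73), 0.24 for MCL1 (-0.096 to 0.58) and -0.25 for BMF (-0.68 to 0.18), so for each of these a stronger response of either line lies inside the interval. The farthest from 0 were BCL2L1 (-0.36, -0.77 to 0.050) and BCL2 (-0.36, -0.84 to 0.11). The calls of PMAIP1 and MCL1 in shRb and not in Huh7 therefore do not show that the lines responded differently.

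Without sorafenib, 0 of 10 members were called between shRb and Huh7 (0 at an unadjusted p under 0.05 by limma and 1, MCL1, by the methods' test, which gave 0 after adjustment), beside 1.02% of all genes higher and 0.536% lower. The untreated differences ran from -0.18 for MCL1 (95% interval -0.42 to 0.058) to 0.24 for BIK (-0.13 to 0.61). With sorafenib again 0 of 10 were called (2 at an unadjusted p under 0.05 by limma, 1 by the methods' test and 0 after adjustment), beside 1.82% of all genes higher and 1.80% lower. The 2 were BMF, at -0.35 (95% interval -0.65 to -0.047, adjusted p = 0.272), and BCL2L1, at -0.30 (-0.59 to -0.011, adjusted p = 0.338). Of the 10 members, 3 were lower without overlap in treated shRb than in treated Huh7, and 0 were higher. They were BMF (5.72 to 6.03 against 6.09 and 6.27), BCL2L1 (8.93 to 9.09 against 9.31 and 9.36) and BID (6.56 to 6.78 against 6.86 and 6.93). Neither the share without overlap nor that at an unadjusted p under 0.05 was counted over all genes between the lines. These comparisons share arrays with those of sorafenib, and a batch, which the labels do not give, cannot be told apart from the line.

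The rest of the pathway was read from 4 lists, in which 50 genes had a cluster of their own and were tested. Sorafenib raised 4 and lowered 1 of the 50 in shRb, and raised 4 and lowered 0 in Huh7. Over all genes 2.96% were called higher and 3.74% lower in shRb, and 1.00% and 0.893% in Huh7. The 4 that rose were the same genes in both lines, all from the list of 16 measured regulators. DDIT3, the stress transcription factor CHOP, read 6.21, 6.07 and 6.14 in shRb cells with sorafenib and 3.63, 3.66 and 3.21 in shRb controls, and 5.96 and 6.38 in Huh7 cells with sorafenib and 3.66 and 3.66 in Huh7 controls. It rose 6.26-fold in shRb (log2 2.65 ± 0.15 SE, adjusted p = 5.95e-05) and 5.69-fold in Huh7 (log2 2.51 ± 0.18 SE, adjusted p = 0.000784).

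ATF3, a stress-induced partner of DDIT3 and JUN, read 6.57, 6.56 and 6.59 in shRb cells with sorafenib and 4.95, 5.09 and 5.35 in shRb controls. In Huh7 it read 6.35 and 6.18 with sorafenib and 4.32 and 4.06 in controls. With sorafenib shRb was above Huh7 by 0.31 (adjusted p = 0.361), and untreated shRb was higher than untreated Huh7 by 0.94 (adjusted p = 0.0141), a call that was lost without Huh7 control replicate 1 (0.0677) or 3 (0.164) or shRb control replicate 8 (0.0554). ATF3 rose by 1.44 in shRb (adjusted p = 0.000344) and by 2.07 in Huh7 (adjusted p = 0.000784), and the difference between these (-0.63) did not pass (adjusted p = 0.441). JUN, a subunit of AP-1, rose 2.29-fold in shRb (adjusted p = 0.000943) and 2.67-fold in Huh7 (adjusted p = 0.00282). TRIB3, a pseudokinase induced by DDIT3, rose 2.01-fold in shRb (adjusted p = 0.00217) and 1.73-fold in Huh7 (adjusted p = 0.0356). The Huh7 call of TRIB3 was lost without any one of the 4 Huh7 arrays or the 3 shRb controls (adjusted p 0.057 to 0.224).

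**Figure D3:**
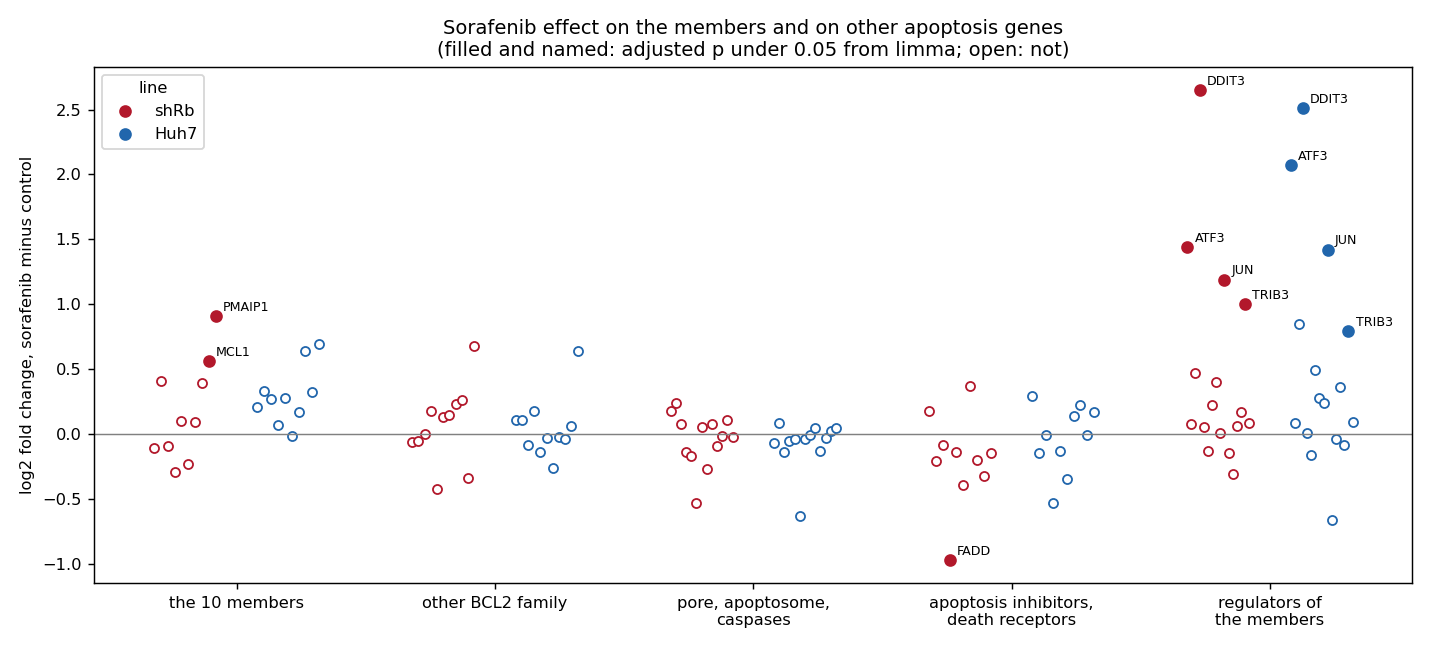
Log2 fold change with sorafenib (vertical axis) of the 10 BCL2 family members and of the measured genes of 4 further apoptosis lists (horizontal axis), in shRb (red, left in each group) and Huh7 (blue, right). Genes past an adjusted p of 0.05 are filled and named: DDIT3, ATF3, JUN and TRIB3 rose in both lines, PMAIP1 and MCL1 in shRb, and FADD fell in shRb.

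Outside the regulators 1 gene moved. FADD, the adaptor that joins death receptors to caspase-8, read 5.54, 6.02 and 5.68 in shRb cells with sorafenib and 6.91, 6.62 and 6.63 in shRb controls, and fell by 0.97 on the log2 scale (0.509-fold, adjusted p = 0.00877), a call lost under the replicate block (0.065) and the methods' test (0.136). In Huh7 it read 6.50 and 6.01 with sorafenib and 6.83 and 6.75 in controls (-0.53, adjusted p = 0.281). None of the 11 further BCL2 family genes or the 13 pore, apoptosome and caspase genes was called in either line. BAK1, the other pore former, had log2 fold changes of -0.050 in shRb and 0.11 in Huh7. HRK, a further BH3-only gene, had 0.68 in shRb (adjusted p = 0.103) and 0.64 in Huh7 (adjusted p = 0.315). MDM2, a ubiquitin ligase, had -0.15 in shRb (adjusted p = 0.656) and -0.66 in Huh7 (adjusted p = 0.0771). ATF4, which drives DDIT3, had 0.081 in shRb and 0.087 in Huh7. Of the 10 measured inhibitors of apoptosis and death receptor genes, the remaining 9 were not called in either line.

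The genes whose values over the 10 arrays were most like those of the 3 members that rose in the mean of both lines were taken from 11196 genes above the median level. For PMAIP1 these were ATG14 (Pearson r = 0.980), MEGF10 (0.978) and PRRG4 (0.976), for MCL1 LRIG3 (0.972), RRAGD (0.971) and OSER1 (0.962), and for BMF SPNS1 (0.966), ELL (0.961) and GRB10 (0.958). PMAIP1 and MCL1 correlated at r = 0.809 over the 10 arrays and at -0.553 once each array was taken relative to its group mean, and PMAIP1 and BMF at 0.658 and 0.161. These are descriptions over 10 arrays that share 4 group means.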

How the data were processed

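The authors extracted total RNA, labelled it with a WT PLUS kit, scanned HuGene 2.1 ST array strips and normalized them in Affymetrix Expression Console by RMA (RMA-sketch), which equalizes the arrays' distributions, so a change in total RNA is not visible. The authors analysed the normalized arrays in the TAC software (Affymetrix) at default settings, which was not run here. The deposited values are log2 values of 53617 transcript clusters. The software version, annotation and build are not given in the sources used here, nor is the strip of each array.

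The cluster with a member's symbol alone and the highest mean over 10 arrays was used. The 4 group means were fitted over all arrays with limma 3.58.1 in R 4.3.3 (6 residual degrees of freedom), and a Benjamini-Hochberg adjusted p under 0.05 across every cluster was the call rule. The procedure was run on simulated data with independent noise and changes larger than those of the members. That run therefore does not test calls of changes as small as those of the members, or arrays from cultures that are not separate. Each group's arrays were taken as separate cultures, although both treated Huh7 samples are described as the second replicate, so p-values measure the spread between these samples, which may be technical. The members and lists were chosen with earlier results of these data known. All members were named, and of each list up to 4 genes with the smallest p among those called, or the smallest p where none was. ATF4, BAK1, CHAC1 and MDM2 were chosen after their values were seen. Alternatives were other variance models, filters, normalizations, features, arrays sharing the spread, the methods' t-test, a replicate block, an adjusted p under 0.1 and leaving out each array. Some genes of the lists are not reported here.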

Additional observations from a re-analysis of the deposited data

How the results depend on the processing

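The count of members called in shRb with sorafenib was 2 in the reported fit, 0 under the methods' t-test and 0 under the replicate block, and stayed at 2 without any one array. The block took arrays whose descriptions give the same replicate order together (sorafenib 10 with control 7, 11 with 8 and 12 with 9). Their deviations from the group means did not correlate above 0 (r = -0.152, -0.163 and -0.0549), and no source says that they share a culture or batch, so they were not treated as pairs. In Huh7 the count was 0, and was 1 (BMF) with brighter clusters only or clusters with 1 gene symbol only, 2 (BMF and PMAIP1) at an adjusted p under 0.1, and 0 to 1 without single arrays. Counts in the other 4 comparisons stayed within 1.5 times the reported ones in the settings run for each. Of the pathway genes, 5 were called in shRb and 4 in Huh7, against 1 and 0 under the methods' test, and 4 in shRb under the replicate block, with FADD lost. The untreated lines gave 1 and the treated lines 3, against 0 each with only the compared arrays or the methods' test, and 0 to 1 and 0 to 2 without single arrays, and the mean effect 9, against 5 to 9 without single arrays. No called member changed sign. Signs of uncalled values turned in 21 cases, for which the cause was not tested. Under median centring BID in Huh7 was 0.0041. Without single arrays the log2 values ran, with sorafenib in Huh7, from -0.034 to 0.17 for BCL2L1, -0.10 to 0.45 for BIK and -0.049 to 0.016 for BID. The difference of effects ran from -0.15 to 0.31 for BBC3 and -0.35 to 0.20 for BIK. Untreated shRb against Huh7 ran from -0.094 to 0.18 for BCL2, -0.041 to 0.16 for BCL2L1, -0.096 to 0.047 for BCL2L11, -0.27 to 0.18 for BBC3 and -0.034 to 0.52 for BIK. Treated shRb against Huh7 ran from -0.028 to 0.15 for MCL1 and -0.11 to 0.19 for BBC3, and the mean effect from -0.0023 to 0.27 for BIK and -0.00059 to 0.10 for BAX. Each member has 1 cluster of its own, so no second cluster could be read. The methods' test and the replicate block were not run for the difference of effects or the mean effect. Groups of 2 or 3 arrays were not tested for outlying arrays.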

Other observations

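Between sorafenib-treated shRb and sorafenib-treated Huh7 cells, 3 of the 50 pathway genes were called: AIFM1, a mitochondrial flavoprotein, was higher in shRb (0.52, adjusted p = 0.0288), and CASP2 (-0.47, adjusted p = 0.0499) and the receptor TNFRSF1A (-0.75, adjusted p = 0.00842) were lower. Over all genes 1.82% were called higher and 1.80% lower in this comparison. The call of TNFRSF1A was lost without Huh7 sorafenib replicate 5 (adjusted p = 0.0521) or 6 (0.0926), that of CASP2 without any one array, and that of AIFM1 without any one array but shRb sorafenib replicate 11. In untreated cells the same differences were -0.34 for TNFRSF1A, -0.38 for CASP2 and 0.26 for AIFM1, none past the threshold.

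In the mean of the sorafenib effects of both lines, 6 of the 50 pathway genes were higher and 3 lower, beside 3.71% and 4.58% of all genes. Beside the genes already given, HRK (0.66, adjusted p = 0.039, limma) and CHAC1, a glutathione-degrading target of the stress response (0.66, adjusted p = 0.0229), were higher. CASP8 (-0.58, adjusted p = 0.039) and MDM2 (-0.41, adjusted p = 0.0444) were lower, with FADD (-0.75, adjusted p = 0.00698, limma). HRK was above the array median on 7 of 10 arrays, so its fold change is that of dim probes. The call of HRK was lost without any one array but shRb sorafenib replicate 11, and that of MDM2 without any one but shRb sorafenib replicate 10. That of CASP8 was lost without any one but shRb control replicate 7 or shRb sorafenib replicate 10. CHAC1 lost its call without Huh7 control replicate 1 or 3, Huh7 sorafenib replicate 5, or shRb control replicate 7 or 8. Without single shRb arrays the lost calls had adjusted p-values up to 0.086 for HRK, 0.101 for MDM2, 0.0822 for CASP8 and 0.0546 for CHAC1 (limma).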
